A study of Mus musculus with 6 samples.

Results

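The collagen genes are the protein-coding genes whose mouse symbol has the form Col, a type number, the letter a and a chain number. The deposited table held 44 of them among 55298 gene identifiers, and none was at 0 in every sample. They were grouped by the kind of assembly their proteins form, into 11 fibrillar genes, 6 basement membrane genes of type IV and 27 genes of other types. The RNA came from oligodendrocytes isolated from mouse brain on magnetic beads carrying an antibody to O4, a surface sulfatide of late oligodendrocyte precursors and oligodendrocytes, and sequenced in bulk without culture. All mice carried the strain label c56Bl/6j. They received either the MOG 35-55 peptide, a fragment of myelin oligodendrocyte glycoprotein, which induces experimental autoimmune encephalomyelitis (EAE), or ovalbumin (OVA), and were killed when disease was at its height. The EAE group had 6 mice in 3 pools of 2 mice each. The OVA group had 4 mice in 3 samples, of which replicate 1 and replicate 3 held 1 mouse each and replicate 2 was a pool of 2. Age, sex, adjuvant and the time between immunisation and death are not given in the sources used here. EAE models multiple sclerosis, with entry of T cells and myeloid cells into the brain and spinal cord.

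Collagens are secreted or membrane-bound proteins whose alpha chains wind into a rope-like helix, and they form the fibres and sheets to which cells of most tissues attach. Fibrillar types such as I, III and V build rope-like fibres, and in the brain they are known mainly from the meninges and the connective tissue around large vessels. Type IV forms the mesh of basement membranes, which in the brain surround vessels, and fibril-associated, beaded filament, network and transmembrane collagens bind these structures or link them to cells. Vascular cells, perivascular fibroblasts and the choroid plexus are the usual sources of collagen in brain tissue, while several collagens are also known to be made by glia or neurons.

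Each value was an rlog value, a regularised logarithm on the log2 scale, on which a difference of 1 is a doubling of the read count scaled for library size. The transformation shrinks differences, most for weakly expressed genes. The values carry no counts, which leaves the depth of the samples unknown. Of 18161 genes with a mean rlog value of at least 3, 312 were higher in EAE (1.72% of those tested) and 121 were lower (0.666%) at an adjusted p under 0.05. The markers of oligodendrocytes, the labelled cells, had the highest summed level of 9 marker lists, at 20.13 to 20.28 in EAE and 19.77 to 20.20 in OVA (log2 of summed unlogged rlog values). Choroid plexus markers summed to 17.45 to 17.87 in EAE and 16.69 to 18.50 in OVA. That sum is mostly Ttr, at 17.36 to 17.78 in EAE and 16.57 to 18.41 in OVA. Kl, the next highest of the list, averaged 12.02 in EAE and 12.29 in OVA. Endothelial markers summed to 15.40 to 15.96 in EAE and 15.89 to 16.61 in OVA, and fibroblast markers to 11.81 to 12.10 in EAE and 11.93 to 12.09 in OVA. Pdgfra had the highest mean of the fibroblast markers, at 10.72 in EAE and 10.34 in OVA. It is also on the list of oligodendrocyte precursor markers, so the fibroblast sum is not specific to fibroblasts. A mean rlog value of at least 3 was reached by 7 of 7 choroid plexus and 9 of 9 endothelial markers. The same held for 9 of 9 pericyte and smooth muscle markers and 9 of 10 fibroblast markers. The cells that these transcripts came from were not tested. The X-inactivation transcript Xist was at 13.50 to 14.16 in EAE and 7.39 to 7.63 in OVA, and the Y-linked Ddx3y at 9.44 to 10.18 in EAE and 11.29 to 11.46 in OVA, so a difference in sex between the groups and the immunisation cannot be told apart. In bulk RNA, fewer cells of a type and less RNA per cell cannot be told apart either.

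Of the 44 collagen genes, 42 had a mean rlog value of at least 3 and were tested. Col10a1, the hypertrophic cartilage collagen, averaged -1.49 in EAE and -1.48 in OVA, and Col19a1 averaged -0.04 in EAE and -0.02 in OVA, so both lay under the filter. The lowest tested member, the fibrillar Col24a1, stood at 3.85 ± 0.08 in EAE and 3.97 ± 0.23 in OVA (SD, n = 3 each). Per length of transcript, the highest level belonged to Col9a3, a chain of the fibril-associated type IX, at 10.90 in EAE and 10.71 in OVA (rlog minus log2 of exonic kilobases). Col11a2, a chain of the minor fibrillar type XI, followed at 9.72 in EAE and 9.60 in OVA, and Col16a1, a fibril-associated chain, at 9.43 in EAE and 9.06 in OVA. Col4a1 and Col4a2, the chains of nearly all vascular basement membranes, came after Col16a1 in EAE, at 9.14 and 9.02, and before it in OVA, at 9.42 and 9.26. The type I chains Col1a1 and Col1a2 were lower per length, at 6.54 and 7.02 in EAE and 6.79 and 7.06 in OVA.

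Most of the tested collagens did not pass the adjusted threshold between EAE and OVA. The median size of their differences, whatever the sign, was 0.21, against 0.11 for all tested genes. Col20a1 was higher in EAE and Col6a6 was lower, and these were the 2 of 42 tested collagens past the adjusted threshold in limma. The share over all tested genes was 2.38% in either direction. Of the 42, 23 lay above 0 and 19 below (49.3% of all genes lay above), with a median EAE minus OVA difference of 0.019 against -0.0024 over all genes. A difference of at most 0.5 in size was found for 39 of the 42 (92.9%) and for 94.2% of all tested genes. An unadjusted p under 0.05 was found for 5 collagens (11.9%), against 16.3% of all genes. The EAE and OVA samples did not overlap for 6 collagens, 5 of them higher in EAE (Col20a1, Col4a4, Col11a1, Col5a1 and Col9a1) and 1 lower (Col6a6), where 12.1% and 10.8% of all genes did not overlap in those directions and 22.8% in either. With 1 call in each direction, the called share of the collagens was 4.76%, which rests on 2 genes. The share whose groups did not overlap was 14.3%, below that of all genes. Neither share was tested against the background. Without OVA replicate 3 the same 2 genes passed, against 4.68% of all genes higher, 1.91% lower and 6.59% in either direction. In that fit 9 collagens had an unadjusted p under 0.05, against 23.3% of all genes, and 24 lay above 0 and 18 below, against 49.1% of all genes above. The groups then did not overlap for 8 collagens that were higher in EAE and 3 that were lower, against 21.4% and 20.0% of all genes in those directions and 41.4% in either. The sign of the difference was the opposite of that with all samples for 7 of the 42, none of which exceeded 0.21 in size.

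**Figure D1:**
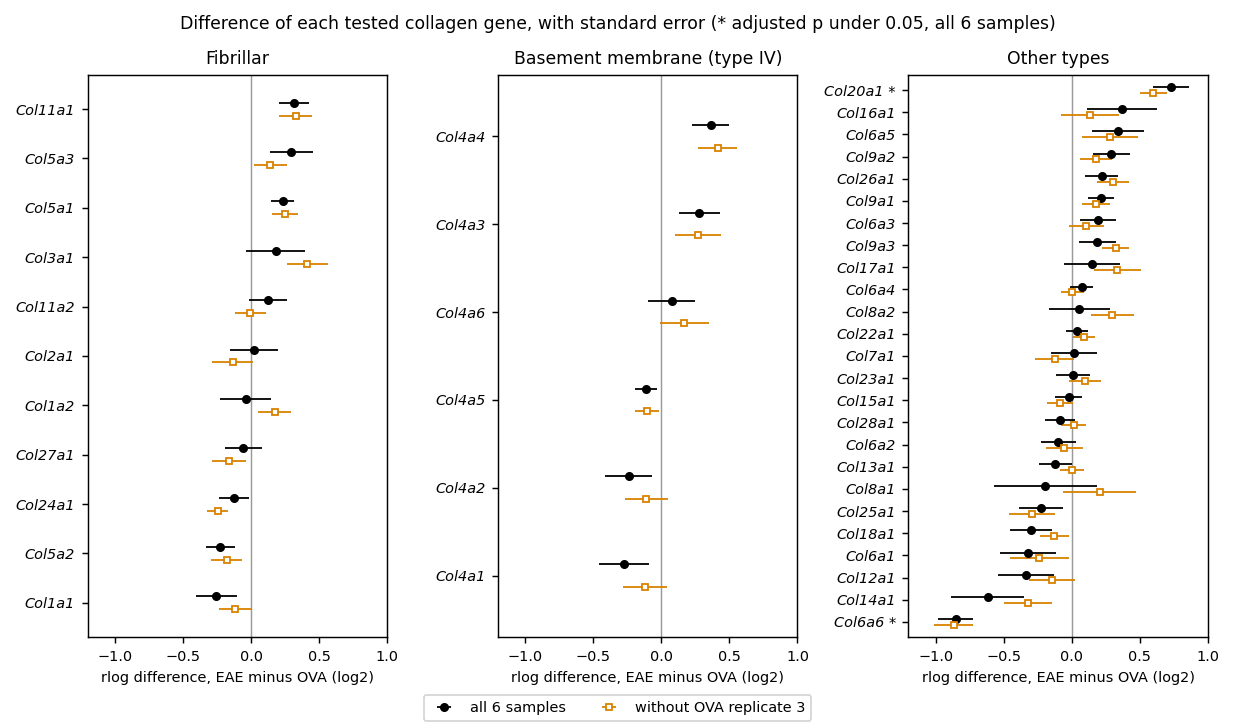
EAE minus OVA difference in rlog value (log2, horizontal axis) of the 42 tested collagen genes, grouped by type. Black points come from all 6 samples and orange squares from the fit without OVA replicate 3, bars are standard errors, and an asterisk marks an adjusted p under 0.05. Col20a1 lies at 0.73 and Col6a6 at -0.85, and 39 of the 42 lie within 0.5 of 0.

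Col20a1 encodes a fibril-associated collagen, a class of interrupted helices that coat fibrils, and was first described from chick embryo tissue. The gene (ENSMUSG00000016356) lies on the plus strand of chromosome 2 at 180986535 to 181018363 (GRCm38). Its rlog values were 9.18, 9.21 and 9.41 in EAE, against 8.64, 8.69 and 8.28 in OVA. All EAE pools lay above all OVA samples, and OVA replicate 3 was the lowest of the 6. The difference was 0.73 ± 0.13 (SE, 95% confidence interval 0.42 to 1.03), which is 1.66-fold higher in EAE, with an adjusted p of 0.0356. Without OVA replicate 3 it was 0.60 ± 0.10, or 1.52-fold, with an adjusted p of 0.0165. When any other sample was left out the adjusted p was 0.0786 to 0.138, with differences of 0.66 to 0.81. After centring each sample on its median the difference was 0.70 (adjusted p = 0.0503), and after quantile normalisation 0.71 (adjusted p = 0.0561). The call was lost in these fits while the difference stayed close to that of all samples. Markers of oligodendrocytes had a median difference of 0.23 between EAE and OVA, or 0.12 without OVA replicate 3. In both fits 7 of 7 lay above 0 and none passed the threshold. Markers of oligodendrocyte precursors had a median of 0.28, or 0.079 without that replicate. With all samples 5 of these 7 lay above 0, and Ptprz1 was lower past the threshold (14.3%, against 2.38% of all genes in either direction). The part of either list in the Col20a1 difference was not tested.

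The bases just before the start of Col20a1 are shown because the annotation places another transcript there. They are the 250 bases of chr2:180986285-180986534, plus strand, GRCm38.p6, from RefSeq, and they lie within an exon of BX649560.1, annotated as sense-overlapping, which shares 79 exonic bases with Col20a1 on the same strand. Strand does not separate reads of Col20a1 and BX649560.1 within those 79 bases, and the handling of such reads is unknown. BX649560.1 stood at 7.75, 7.72 and 7.60 in EAE and 7.76, 7.96 and 7.73 in OVA, with overlapping groups. Both strands were searched for the TATA box (TATAAA), for the CCAAT motif and for the GC box (GGGCGG), and none of these occurs in the window. Of 32817 windows of the same length before RefSeq starts, 12.4% hold the TATA box, 33.8% the CCAAT motif and 32.7% the GC box.
Col20a1: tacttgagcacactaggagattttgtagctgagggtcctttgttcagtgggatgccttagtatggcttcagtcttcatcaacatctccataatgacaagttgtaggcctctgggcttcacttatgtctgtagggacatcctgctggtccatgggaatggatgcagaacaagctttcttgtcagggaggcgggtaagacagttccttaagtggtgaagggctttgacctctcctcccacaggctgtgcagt

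Col6a6 encodes an alternative long chain of type VI collagen, which forms the beaded filaments near cell surfaces. The gene (ENSMUSG00000043719) lies on the minus strand of chromosome 9 at 105687809 to 105828160 (GRCm38). Its values were 7.36, 7.38 and 6.99 in EAE, against 8.07, 8.15 and 8.06 in OVA. All EAE pools lay under all OVA samples, and the OVA samples spanned 0.093. The difference was -0.85 ± 0.13 (SE, 95% confidence interval -1.15 to -0.55), which is 1.80-fold lower in EAE, with an adjusted p of 0.022. Without OVA replicate 3 it was -0.87 ± 0.14, or 1.83-fold lower, with an adjusted p of 0.0156. Leaving out EAE replicate 1 gave -0.91 (adjusted p = 0.0686) and leaving out EAE replicate 2 gave -0.92 (adjusted p = 0.0833). Leaving out OVA replicate 1 gave -0.86 (adjusted p = 0.0669) and leaving out OVA replicate 2 gave -0.82 (adjusted p = 0.0987). The difference was thus about as large where the call was lost, and Col6a6 passed under each other scaling and filter tried. Markers of astrocytes, of which 4 of 7 were lower and Gfap was higher past the threshold, had summed levels of 15.70 to 16.02 in EAE and 16.49 to 16.83 in OVA, and their part in the Col6a6 difference was not tested.

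The sequence upstream of Col6a6 is shown for the collagen that fell. It covers 175 bases of the minus strand, chr9:105828161-105828335, GRCm38.p6, from RefSeq, and ends before the more upstream of the annotated starts. Capitals mark GGGCGG or its reverse complement, of which there is 1 match of each, and the search of both strands found no TATAAA and no CCAAT. Of 32817 RefSeq windows of the same length and place, 20.2% hold GGGCGG on either strand.
Col6a6: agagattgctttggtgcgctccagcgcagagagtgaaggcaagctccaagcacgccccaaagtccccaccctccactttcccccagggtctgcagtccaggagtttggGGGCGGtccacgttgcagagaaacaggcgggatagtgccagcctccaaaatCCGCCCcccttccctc

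The neighbours and partners of Col6a6 did not pass. Col6a5 and Col6a4, the other alternative long chains of type VI, lie on the same strand of chromosome 9, and Col6a5 is 27918 bases from Col6a6. Col6a5 had values of 9.16, 9.42 and 8.98 in EAE, against 9.25, 8.56 and 8.73 in OVA. The groups overlapped through OVA replicate 1, and the difference was 0.34 ± 0.19 (SE, adjusted p = 0.43). With array quality weights, which gave OVA replicate 2 most of the weight of its group, Col6a5 was at 0.64 with an adjusted p of 0.0062. Those weights did not reach their convergence tolerance, and with them 15.7% of all genes were called higher and 12.3% lower. Col6a4 was near the low end, at 4.79 ± 0.09 in EAE and 4.72 ± 0.12 in OVA (SD, n = 3 each), with a difference of 0.07. Of the classical type VI chains, Col6a1 had values of 8.80, 9.61 and 8.91 in EAE, against 9.37, 9.33 and 9.59 in OVA. EAE replicate 2 was the highest of the 6 and the other EAE pools the lowest, so the groups overlapped, with a difference of -0.32 ± 0.21 (SE, adjusted p = 0.49). Col6a2 differed by -0.10 and Col6a3 by 0.19, neither past the threshold. Of the 8 tested genes of beaded filaments and anchoring fibrils, which also include Col7a1 and Col28a1, 4 lay above 0 and 4 below. Over all genes 49.3% lay above 0. The median of the 8 was -0.034, and Col6a6 was the member past the threshold (12.5%, against 2.38% of all genes in either direction).

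**Figure D2:**
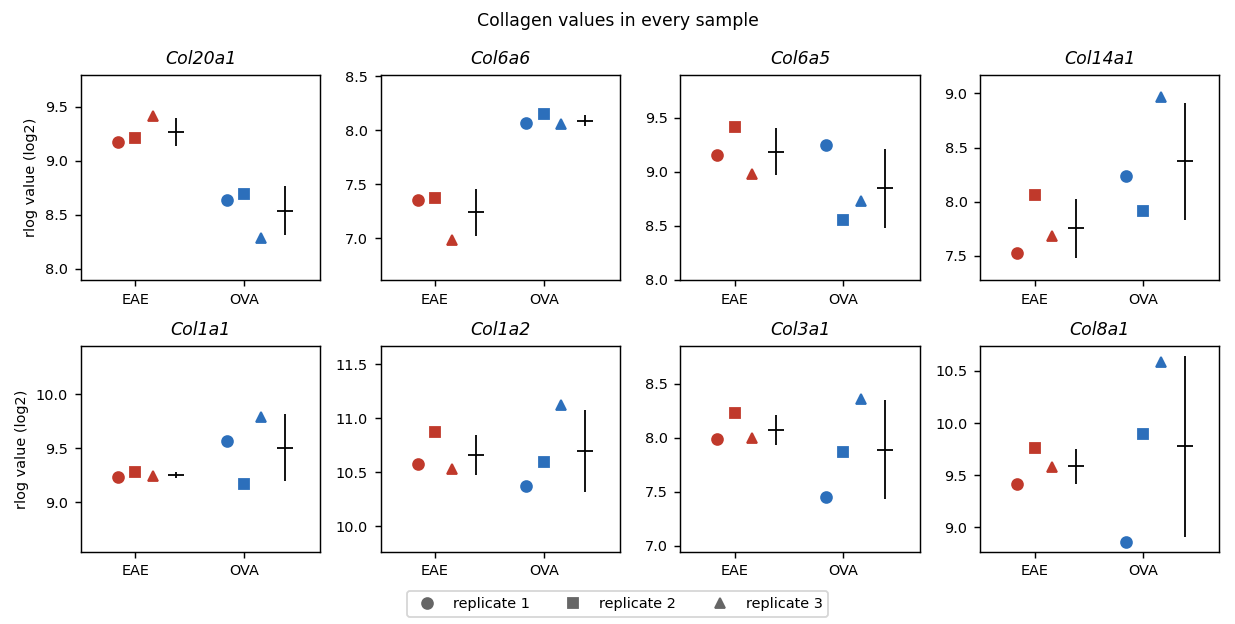
Rlog values (log2, vertical axis) of 8 collagen genes in the 3 EAE and 3 OVA samples, each point 1 sample, with the group mean and SD as bars. EAE and OVA do not overlap for Col20a1 and Col6a6, while for Col8a1 the OVA samples run from 8.86 to 10.58 around EAE pools at 9.41 to 9.76.

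None of the 11 fibrillar genes passed the threshold in limma, and 2 of them, Col11a1 and Col5a1, had an unadjusted p under 0.05 (18.2%, against 16.3% of all genes). Of the 11, 6 lay above 0 and 5 below, with a median of 0.021 and a range of -0.25 to 0.32. Without OVA replicate 3 the median was -0.0049, again with none past the threshold and with 4 at an unadjusted p under 0.05 (36.4%, against 23.3% of all genes). Col1a1 encodes the main chain of type I collagen, the chief fibre of connective tissue, and lies on chromosome 11 at 94936224 to 94953042. Its values were 9.23, 9.28 and 9.24 in EAE, against 9.56, 9.17 and 9.79 in OVA. The EAE pools spanned 0.047 and sat inside the OVA range of 0.62, with a difference of -0.25 ± 0.15 (SE, 95% confidence interval -0.60 to 0.09, adjusted p = 0.45). Col1a2, the partner chain, lies on chromosome 6 at 4504814 to 4541544. It had 10.57, 10.87 and 10.53 in EAE, against 10.38, 10.60 and 11.12 in OVA. The groups overlapped, with a difference of -0.04 ± 0.19 (SE, 95% confidence interval -0.48 to 0.40, adjusted p = 0.95), and without OVA replicate 3 the difference was 0.17.

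Col3a1, the chain of the thin fibres of type III in vessel walls, lies on chromosome 1 at 45311538 to 45349706. Its values were 7.985, 8.231 and 7.998 in EAE, against 7.448, 7.868 and 8.357 in OVA. OVA replicate 3 was the highest of the 6 and OVA replicate 1 the lowest, and the difference was 0.18 ± 0.22 (SE, 95% confidence interval -0.33 to 0.69, adjusted p = 0.73). Without OVA replicate 3 the groups no longer overlapped and the difference was 0.41 ± 0.15, with an adjusted p of 0.15, and without OVA replicate 1 it was -0.04. Within each sample, the log2 ratio of Col3a1 to Col1a1 was -1.25, -1.05 and -1.24 in EAE, against -2.11, -1.30 and -1.43 in OVA. All EAE ratios lay above all OVA ratios by a mean of 0.43, with an exact two-sided permutation p of 0.1, the smallest that 3 samples against 3 can give. Without OVA replicate 1 the mean difference in that ratio was 0.18. The ratio of Col1a1 to Col1a2 was -1.41 ± 0.16 in EAE and -1.19 ± 0.33 in OVA (SD, n = 3 each, exact permutation p = 0.5).

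Among the minor fibrillar chains, known to limit fibre width, 2 had groups that did not overlap, which is 18.2% of the 11 fibrillar genes against 22.8% of all genes. Col5a1 of type V had 8.19, 8.28 and 8.24 in EAE, against 8.01, 7.96 and 8.04 in OVA. The groups did not overlap and each spanned less than 0.1, and the difference was 0.23 ± 0.09 (SE, adjusted p = 0.24). Col11a1 of type XI had 6.83, 6.77 and 6.86 in EAE, against 6.33, 6.65 and 6.52 in OVA. Here too the groups did not overlap, with a difference of 0.32 ± 0.11 (SE, adjusted p = 0.21). Their partner chains did not share a direction, at 0.30 for Col5a3, -0.23 for Col5a2 and 0.12 for Col11a2, and none of these passed. Col2a1, Col24a1 and Col27a1 differed by 0.02, -0.13 and -0.06.

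The type IV genes lie in head-to-head pairs that start close to each other on opposite strands, and none of the 6 passed the threshold in limma, with 1 (Col4a4) at an unadjusted p under 0.05 (16.7%, against 16.3% of all genes). Of the 6, 3 lay above 0 and 3 below, with a median of -0.020 and, without OVA replicate 3, of 0.032. The stretch where the pair of vascular chains starts is shown because both transcripts begin in it, on opposite strands. It is chr8:11312805-11312826, GRCm38.p6, from RefSeq, 22 bases that belong to the first exons of both Col4a2 (plus strand) and Col4a1 (minus strand). Capitals mark GGGCGG or its reverse complement, which 4.09% of 32817 RefSeq starts hold in their first 22 bases, and neither TATAAA nor CCAAT occurs.
Col4a2 strand: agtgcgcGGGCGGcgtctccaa
Col4a1 strand: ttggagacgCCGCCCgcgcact

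Col4a1 and Col4a2, which together form the common type IV helix of vessels, moved as a pair from sample to sample. Col4a1 (chromosome 8, 11198423 to 11312826) had 11.91, 12.33 and 11.89 in EAE, against 11.96, 12.37 and 12.63 in OVA. Col4a2 (chromosome 8, 11312805 to 11449287) had 11.63, 12.04 and 11.57 in EAE, against 11.68, 12.04 and 12.25 in OVA. Both were highest in OVA replicate 3 and the groups overlapped for both. The differences were -0.27 ± 0.19 (SE, 95% confidence interval -0.71 to 0.16, adjusted p = 0.51) for Col4a1 and -0.24 ± 0.17 (SE, 95% confidence interval -0.64 to 0.16, adjusted p = 0.53) for Col4a2. Without OVA replicate 3 they were -0.12 and -0.11. The log2 ratio of Col4a1 to Col4a2 stayed between 0.27 and 0.38 in all 6 samples, while Col4a1 itself spanned 0.73. It averaged 0.30 ± 0.02 in EAE and 0.33 ± 0.05 in OVA (SD, n = 3 each, exact permutation p = 0.4). Endothelial markers, the 9 of which were all under 0 with none past the threshold, had a median difference of -0.56, or -0.33 without OVA replicate 3. The 9 pericyte and smooth muscle markers were also all under 0 with none past the threshold, with a median of -0.37, or -0.17 without that replicate. Their part in the type IV values was not tested.

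Col4a3 and Col4a4 encode chains of the type IV network known from kidney glomeruli, and their starts on chromosome 1 lie 72 bases apart. The 71 bases between them are shown as the stretch from which this pair is transcribed in opposite directions, chr1:82586850-82586920, minus strand, GRCm38.p6, from RefSeq. They hold none of the motifs searched before on either strand. Of RefSeq windows of that length before a start, 4.42% hold the TATA box, 13.3% the CCAAT motif and 20.7% the GC box.
Col4a3 to Col4a4: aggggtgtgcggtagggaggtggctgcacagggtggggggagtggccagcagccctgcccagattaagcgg

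Col4a4 (chromosome 1, 82448423 to 82586849) had 9.36, 9.46 and 9.39 in EAE, against 8.74, 9.24 and 9.14 in OVA. The groups did not overlap, and the EAE pools spanned 0.10 against 0.49 in OVA. The difference was 0.36 ± 0.13 (SE, 95% confidence interval 0.05 to 0.67, adjusted p = 0.23), and 0.41 without OVA replicate 3 (adjusted p = 0.13). Col4a3 (chromosome 1, 82586921 to 82722059) had 8.68, 9.06 and 8.76 in EAE, against 8.33, 8.80 and 8.54 in OVA. The groups overlapped through OVA replicate 2, with a difference of 0.28 ± 0.15 (SE, adjusted p = 0.41). The log2 ratio of Col4a3 to Col4a4 did not differ beyond its spread, at -0.57 ± 0.15 in EAE and -0.48 ± 0.11 in OVA (SD, n = 3 each, exact permutation p = 0.5).

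Col4a5 and Col4a6, the X-linked pair, have starts 1309 bases apart. Col4a5 (chromosome X, 141475385 to 141689234) had 9.83, 10.03 and 9.86 in EAE, against 10.06, 9.96 and 10.04 in OVA. The groups overlapped, with a difference of -0.11 ± 0.08 (SE, adjusted p = 0.53). Col4a6 (chromosome X, 141165403 to 141474076) had 7.71, 8.03 and 7.68 in EAE, against 7.38, 7.89 and 7.92 in OVA. These groups overlapped as well, with a difference of 0.08 ± 0.17 (SE, adjusted p = 0.87). Both lie on the X chromosome, and the part of the groups' difference in Xist in their values was not tested.

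**Figure D3:**
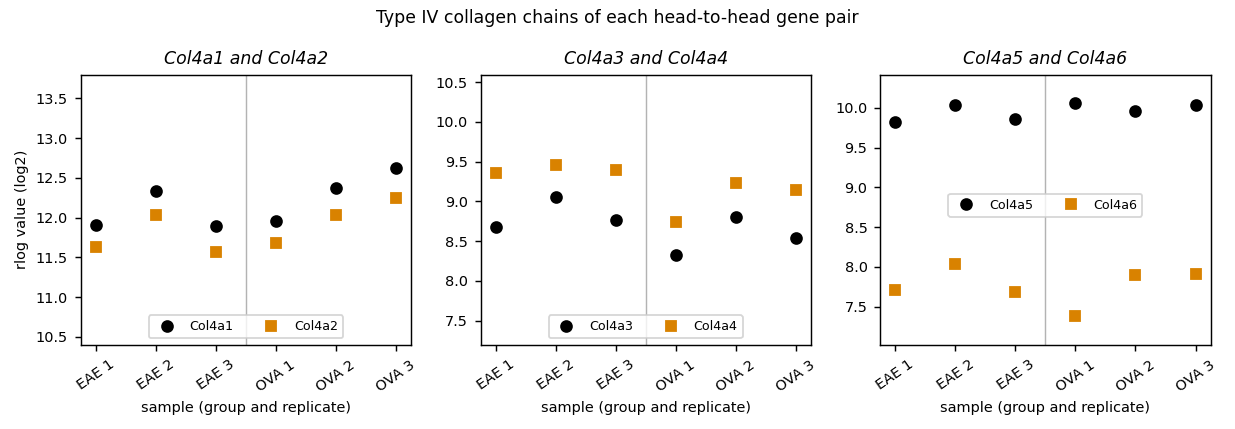
Rlog values (log2, vertical axis) of the 3 head-to-head pairs of type IV genes in each of the 3 EAE and 3 OVA samples (horizontal axis). The points of Col4a1 and Col4a2 stay 0.27 to 0.38 apart in every sample, and Col4a3 and Col4a4 are both lowest in OVA replicate 1.

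The fibril-associated collagens, which sit on the surface of fibrils, held 6 genes above 0 and 2 below among the 8 tested. Over all genes 49.3% lay above 0. The median of the 8 was 0.20, and Col20a1 was the member past the threshold (12.5%, against 2.38% of all genes in either direction). Col14a1, which binds fibrils in connective tissue, had the second most negative difference of all collagens. Its values were 7.53, 8.06 and 7.68 in EAE, against 8.23, 7.92 and 8.97 in OVA. The groups overlapped through EAE replicate 2 and OVA replicate 2. OVA replicate 3 exceeded the average of OVA replicates 1 and 2 by 0.89, and the difference was -0.62 ± 0.27 (SE, adjusted p = 0.31), or -0.32 without that replicate. Col12a1, its close relative, had 8.31, 8.82 and 8.34 in EAE, against 8.53, 8.74 and 9.21 in OVA. It too was highest in OVA replicate 3, with a difference of -0.34 ± 0.21 (SE, adjusted p = 0.46), or -0.15 without that replicate.

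Col16a1 had the reverse arrangement, with 12.54, 12.17 and 11.86 in EAE, against 12.32, 11.78 and 11.35 in OVA. OVA replicate 3 was the lowest of the 6, and the difference of 0.37 ± 0.26 (SE, adjusted p = 0.52) was 0.13 without it. Chains of type IX, the cartilage collagen that decorates type II fibrils, all lay above 0. Col9a1 had 6.85, 6.70 and 6.80 in EAE, against 6.61, 6.60 and 6.49 in OVA. Its groups did not overlap, with a difference of 0.22 ± 0.10 (SE, adjusted p = 0.32). Col9a2 differed by 0.29 (adjusted p = 0.35) and Col9a3 by 0.19 (adjusted p = 0.53). Of Col9a3's exons 234 bases overlap Tcfl5 on the opposite strand, which was listed under 0 in all 6 samples.

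None of the 9 tested network, multiplexin, transmembrane and type XXVI genes passed the threshold in limma or had an unadjusted p under 0.05, against 2.38% and 16.3% of all genes. Without OVA replicate 3 again none passed, while Col26a1 had an unadjusted limma p of 0.036, against 23.3% of all genes under 0.05. In that fit the groups did not overlap for Col26a1, higher in EAE, and Col15a1, lower in EAE, against 41.4% of all genes in either direction. Col8a1, a short-chain network collagen of vessel walls and the cornea, had 9.41, 9.76 and 9.58 in EAE, against 8.86, 9.90 and 10.58 in OVA. Its OVA samples spanned 1.72, the widest spread of any tested collagen, and the difference was -0.20 ± 0.38 (SE, adjusted p = 0.84), or 0.21 without OVA replicate 3 and -0.66 without OVA replicate 1. Its partner Col8a2 had 10.99, 11.18 and 11.14 in EAE, against 10.52, 11.10 and 11.53 in OVA. The order of the OVA samples was the same as for Col8a1, and the difference was 0.06 ± 0.23 (SE, adjusted p = 0.93), or 0.30 without OVA replicate 3 and -0.21 without OVA replicate 1. The multiplexins Col15a1 and Col18a1, which carry endostatin-like domains at vascular basement membranes, differed by -0.02 and -0.30 (adjusted p = 0.94 and 0.40). The transmembrane Col13a1, Col17a1, Col23a1 and Col25a1 lay between -0.23 and 0.15, and Col26a1 was at 0.22.

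Collagen values spread more widely among the OVA samples than among the EAE pools. The range of the 3 OVA samples exceeded that of the 3 EAE pools for 35 of the 42 tested collagens (83.3%), against 75.9% of all genes. The median range of the collagens was 0.24 in EAE and 0.48 in OVA, and that of all genes 0.15 in EAE and 0.26 in OVA. For 7 of the 42 collagens (16.7%) the difference between EAE and OVA was larger than the OVA range, against 19.5% of all genes. OVA replicate 2, the pool of 2 mice, lay between the single-mouse replicates 1 and 3 for 29 of the 42 (69.0%), against 52.0% of all genes. In 16 genes replicate 3 was the highest OVA sample and replicate 1 the lowest, among them Col8a1, Col8a2, Col3a1, Col1a2, Col4a1, Col4a2, Col12a1 and Col18a1. In 13 genes the order was the opposite, among them Col16a1, Col5a3, Col2a1, Col7a1 and Col27a1. The EAE values are each an average over 2 mice, so the smaller spread in EAE and the pooling cannot be told apart.

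**Figure D4:**
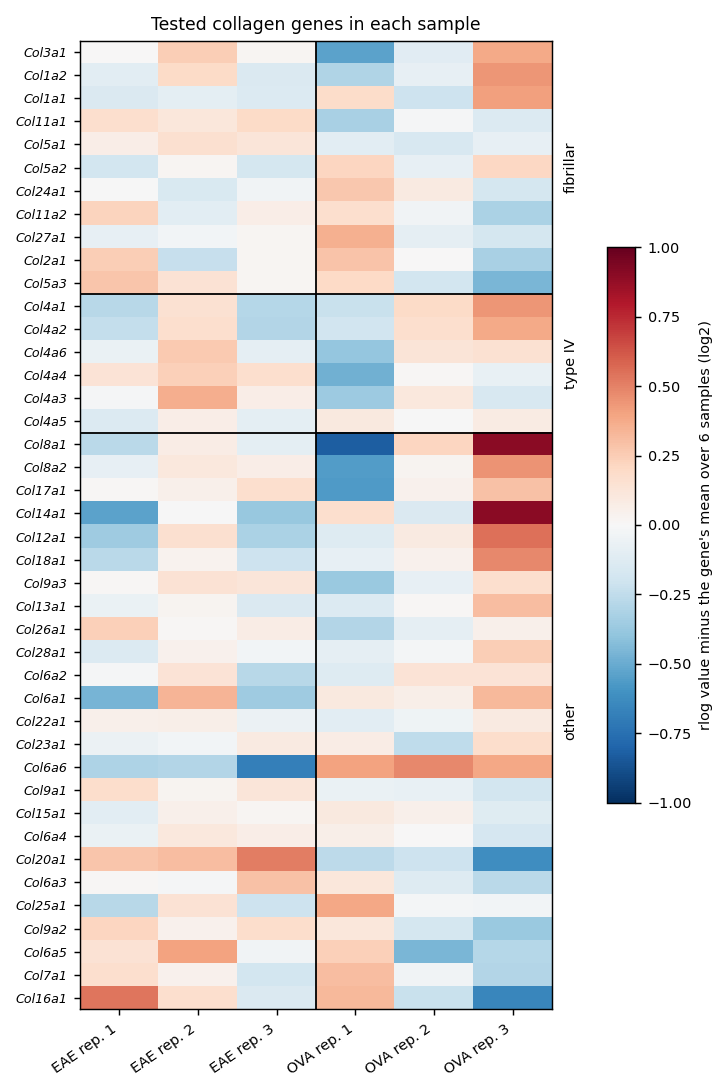
Deviation of each sample from the gene's mean over all 6 samples (rlog, log2, colour scale from -1 to 1) for the 42 tested collagen genes, with EAE pools left of OVA samples. Genes are ordered within each type by OVA replicate 3 minus OVA replicate 1, which runs from -0.97 for Col16a1 to 1.72 for Col8a1.

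The marker lists of vascular and choroid plexus cells varied across the OVA samples in the same order as the first of these gene sets. Summed choroid plexus markers, mostly Ttr, were at 17.45, 17.87 and 17.77 in EAE, against 16.69, 17.93 and 18.50 in OVA. Pericyte and smooth muscle markers were at 14.75, 15.16 and 14.80 in EAE, against 14.91, 15.29 and 15.74 in OVA. Endothelial markers were at 15.40, 15.96 and 15.55 in EAE, against 15.89, 16.09 and 16.61 in OVA. OVA replicate 3 was the highest OVA sample for 9 of 9 pericyte, 9 of 9 endothelial and 7 of 7 choroid plexus markers. The same held for 8 of 10 fibroblast markers, of which Dpep1 lay under the filter, and for 40.2% of all tested genes. It held for 0 of 7 oligodendrocyte markers and 1 of 6 neuron markers. Astrocyte, microglia and macrophage, and oligodendrocyte precursor markers had 1 of 7 each. The summed type IV collagens were at 13.17, 13.54 and 13.15 in EAE, against 13.17, 13.53 and 13.71 in OVA. The summed fibrillar collagens had the opposite order in OVA, at 13.89, 13.78 and 13.78 in EAE, against 13.91, 13.69 and 13.66 in OVA. Their highest member, Col11a2, was at 12.61, 12.40 and 12.13 in OVA. Of the 11 fibrillar genes, 5 had the order of the sum and 2 the reverse. OVA replicate 3 was the highest OVA sample for 4 of the 11, among them Col1a1, Col1a2 and Col3a1. All 44 collagens together differed by 0.015 between EAE and OVA in summed level. The part of vascular or choroid plexus RNA in any collagen difference was not tested.

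**Figure D5:**
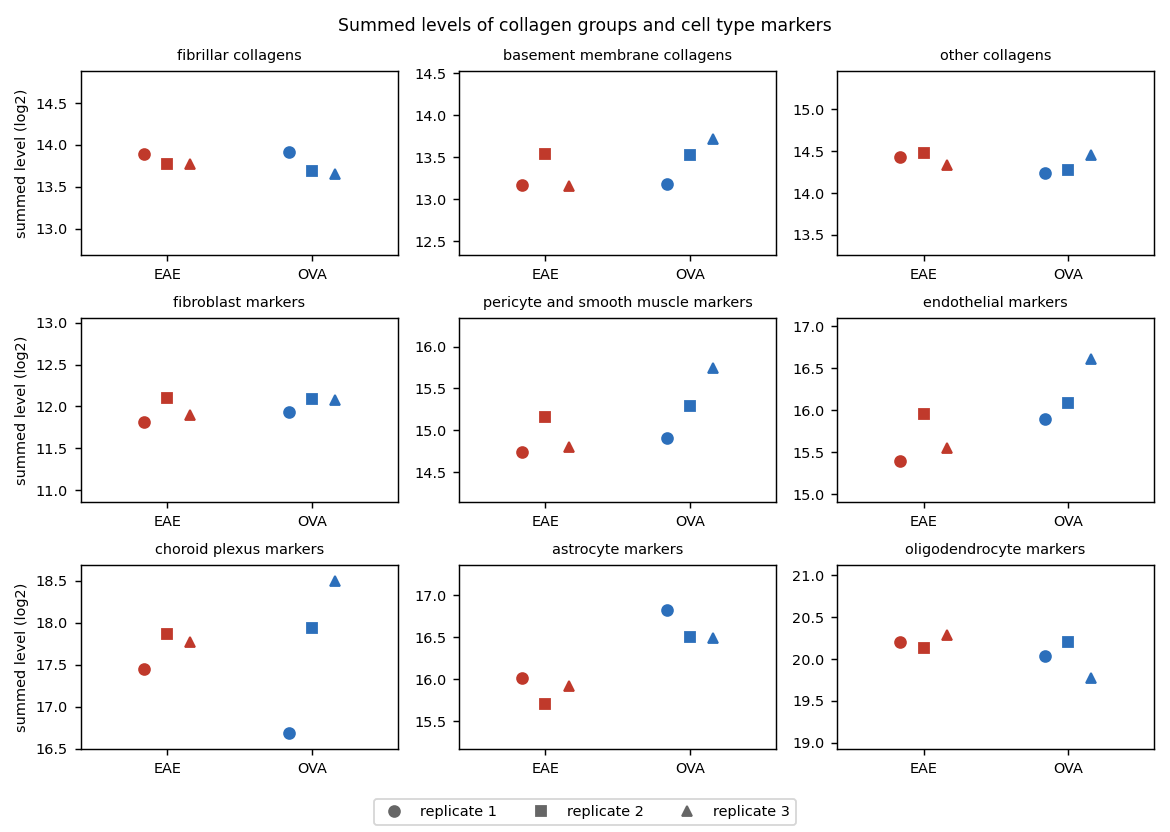
Summed level (log2 of the sum of unlogged rlog values, vertical axis) of 3 collagen groups and 6 marker lists in the EAE and OVA samples, each point 1 sample. Choroid plexus markers, whose sum is mostly Ttr, run from 16.69 to 18.50 over the OVA samples, and type IV collagens from 13.17 to 13.71. The fibroblast markers include Pdgfra, which is also a marker of oligodendrocyte precursors.

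Genes that make, bind or accompany collagens gave no call in the fit of all 6 samples by limma. Of 30 genes of collagen biosynthesis, 13 lay above 0 and 17 below, with a median of -0.018 and 5 at an unadjusted p under 0.05 (16.7%, against 16.3% of all genes). Tll2, a proteinase of the family that trims procollagen, had 8.88, 8.67 and 8.83 in EAE, against 8.43, 8.52 and 8.23 in OVA. P3h2, a prolyl 3-hydroxylase known to act on type IV chains, had 7.95, 8.35 and 8.14 in EAE, against 8.55, 8.50 and 8.80 in OVA. Neither pair of groups overlapped, with differences of 0.40 ± 0.11 (SE, adjusted p = 0.12) for Tll2 and -0.47 ± 0.13 (SE, adjusted p = 0.13) for P3h2.

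Of the 10 receptor genes 9 were tested, since platelet Gp6 lay under the filter, and 4 were above 0 and 5 below with 3 at an unadjusted p under 0.05 (33.3%, against 16.3% of all genes). Mrc2, an endocytic receptor that takes up collagen, had 9.13, 9.57 and 9.27 in EAE, against 9.62, 9.79 and 10.08 in OVA. All EAE pools lay under all OVA samples, with a difference of -0.50 ± 0.15 (SE, adjusted p = 0.15). Ddr1, a collagen-activated receptor tyrosine kinase, had 14.08, 14.01 and 14.20 in EAE, against 13.90, 13.78 and 13.70 in OVA. All EAE pools lay above all OVA samples, with a difference of 0.31 ± 0.10 (SE, adjusted p = 0.18).

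Of 16 laminins, nidogens and other partners in basement membranes, 1 lay above 0 and 15 below, with a median of -0.28, 6 at an unadjusted p under 0.05 (37.5%, against 16.3% of all genes) and none past the adjusted threshold. The median over all genes was -0.0024. Nid1, which links laminin to type IV collagen, had 10.69, 10.81 and 10.51 in EAE, against 11.09, 11.22 and 11.07 in OVA. The groups did not overlap, with a difference of -0.45 ± 0.09 (SE, adjusted p = 0.0548), and -0.48 without OVA replicate 3 (adjusted p = 0.0317). Lama2, the laminin chain of glial and muscle basement membranes, had 10.56, 10.60 and 10.49 in EAE, against 11.04, 10.92 and 10.80 in OVA. These groups did not overlap either, with a difference of -0.37 ± 0.08 (SE, adjusted p = 0.0688), and -0.43 without OVA replicate 3 (adjusted p = 0.018). Without that replicate the median of the 16 was -0.16, with 3 above 0 and 13 below, and 2 were lower past the threshold where 1.91% of all genes were. The endothelial and pericyte markers given with Col4a1 and Col4a2 lay on the same side of 0, and their part in these values was not tested.

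Of 12 other matrix partners, 4 lay above 0 and 8 below, with 3 at an unadjusted p under 0.05 (25.0%, against 16.3% of all genes). Thbs1, a matricellular protein that binds many matrix proteins, had 12.19, 12.21 and 11.65 in EAE, against 10.01, 10.05 and 11.48 in OVA. OVA replicate 3 stood near the EAE pools and far above the other OVA samples. The difference was 1.50 ± 0.38 (SE, adjusted p = 0.10) with all samples and 1.99 ± 0.16 (SE, adjusted p = 0.0014) without OVA replicate 3. Eln, the elastin gene, had 10.47, 10.76 and 10.56 in EAE, against 10.99, 11.01 and 11.36 in OVA. The groups did not overlap, with a difference of -0.52 ± 0.12 (SE, adjusted p = 0.0847), and -0.40 without OVA replicate 3 (adjusted p = 0.0498).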

How the data were processed

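RNA of 3 EAE and 3 OVA samples was sequenced after TruSeq Stranded mRNA preparation, per the labels' protocols. Build GRCm38 and the tools DESeq2 1.24.0, Subread 1.6.1, STAR 2.6.1c, cutadapt 1.18 and bcl2fastq 2.17 stand in the submitters' processing notes, with no role or order. The table deposited by the authors holds log2 values, 1 per gene and sample, which its name calls rlog counts. Rlog settings and annotation release are not given in the sources used here. Depth per sample is therefore unknown, and no counting interval can be given.

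Groups followed the treatment label. Of 55298 identifiers, 99.67% matched a symbol. Positions are from GENCODE M21, and 2 collagens carry another identifier version there. A mean rlog value of at least 3 was required, which 18161 genes met. EAE was compared with OVA by limma 3.58.1 in R 4.3.3 (intensity trend, two-sided, Benjamini-Hochberg over all tested genes, threshold 0.05), which gave every adjusted p. The fit was tested on simulated data. Ratios between genes were compared by exact permutation. P-values measure the spread between these samples, in part pools of mice. Alternatives were other filters, centring, quantile normalisation, no trend, array quality weights and leaving out each sample. The ratio of Col4a3 to Col4a4 was added after the data were seen.

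Members, partner and marker lists were chosen with earlier results of these data known. Genes described singly are those past the threshold, those that do not overlap and differ by at least 0.5, types I, III and IV, the 4 largest and 4 smallest differences, and the 2 partners of smallest p per list. Col5a1, Col11a1, Col9a1, Col8a1, Col8a2 and the other collagens, as well as Xist, Ddx3y and Gfap, were named outside that rule after their values were seen. RefSeq windows matched 35 of the 44 members.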

Additional observations from a re-analysis of the deposited data

How the results depend on the processing

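Leaving out 1 sample at a time gave 0 to 1 collagen genes higher in EAE and 0 to 1 lower, 0 to 2 basement membrane partners and 0 to 2 matrix partners past the threshold, and a median fibrillar difference of -0.0049 to 0.1070. Col20a1 passed without OVA replicate 3 and failed without each other sample, and Col6a6 passed without EAE replicate 3 or OVA replicate 3. Each of these fits has fewer degrees of freedom than the fit of all 6 samples. Over all genes the higher calls ran from 24 (0.132%) without EAE replicate 2 to 850 (4.68%) without OVA replicate 3. The lower calls ran from 1 (0.00551%) to 346 (1.91%) in the same fits. Centring on medians gave 0 collagens higher and 1 lower (Col6a6), against 1.82% and 0.87% of all genes. It also gave 1 basement membrane partner (Nid1) and 1 matrix partner (Eln), both lower in EAE. Quantile normalisation gave 0 collagens higher and 1 lower (Col6a6), against 1.83% and 0.749% of all genes. A minimum mean of 5 gave a median fibrillar difference of 0.0712. Array quality weights called 15.7% of all genes higher and 12.3% lower, weighted OVA replicate 2 by 8.85 against 0.275 and 0.222 for OVA replicates 1 and 3, and did not reach their convergence tolerance. Under them 5 collagens were higher (Col20a1, Col5a1, Col5a3, Col6a5 and Col9a2), 10 biosynthesis genes, 5 receptors, 8 basement membrane partners and 2 matrix partners passed, and the median fibrillar difference was 0.0825. Differences of uncalled genes changed sign for Col1a1 (0.0599) and Col1a2 (0.0837) and Col4a6 (-0.0457) with those weights. Leaving out 1 sample at a time also changed signs, with ranges of -0.1988 to 0.1726 for Col1a2, -0.0414 to 0.4131 for Col3a1 and -0.0999 to 0.1687 for Col4a6. The cause of these changes was not tested. No paired analysis was possible because the labels carry no replicate numbers shared between EAE and OVA. The unknown depth limits what can be said of the weakest members, Col24a1, Col6a4, Col10a1 and Col19a1.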
